A study of Mus musculus with 8 samples.

Results

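Granzymes and the other genes of the cytotoxic granule were followed in T cells of the mouse pancreas. The set holds 9 genes, of 32285 features in the count matrices: the granzymes Gzma, Gzmb, Gzmk and Gzmm, the pore-forming protein gene Prf1, the granule membrane gene Nkg7, the death ligand gene Fasl, the protease gene Ctsw and the proteoglycan gene Srgn. They were named by function, with earlier results of these data known, and all 9 symbols were present once in the feature lists. They were read in 2 groups of T cells set by lineage transcripts alone. T cells had at least 2 UMIs (unique molecular identifiers, each standing for 1 captured RNA molecule) over 6 T cell genes. They also had at most 1 UMI over 6 B cell and myeloid genes. The CD8 gate took T cells in which Cd8a and Cd8b1 summed to 1 UMI or more while Cd4 had 0, and the CD4 gate took those with Cd4 but neither Cd8 chain. Of 80470 cell barcodes, 70748 were kept, and these gave 22270 CD8-gated and 27453 CD4-gated cells.

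Cytotoxic T cells kill a target in 2 known ways. In the first, granules fuse with the membrane at the contact site, perforin opens pores, and granzymes, which are serine proteases stored with the proteoglycan serglycin, enter the target. In the second, Fas ligand on the T cell surface binds the receptor Fas. In autoimmune diabetes of NOD mice, CD8 T cells that recognise islet antigens are known to kill beta cells by such means.

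The libraries came from T cells (CD45+ CD3+ TcR-beta+) of the pancreas, sorted from NOD mice (a strain with spontaneous autoimmune diabetes) labelled as female and 3 to 4 months old, or 3 to 5 months in the treatment protocol. There was 1 library from mice at diabetes onset (blood glucose of 250 mg/dl) and 1 from mice with active diabetes (above 600 mg/dl). The other 6 came from new-onset mice (200 to 300 mg/dl) given PPCA or its vehicle daily, 1 library per arm for each of days 2, 3 and 4 of the sample names. PPCA joined nutlin-3 (50 mg/kg), an inhibitor of MDM2 that raises p53 activity, with MK-1775 (25 mg/kg), an inhibitor of the kinase Wee1, and the vehicle was 30% ethanol, 5% Tween 20 and 65% PEG300. All mice were diabetic and none was a healthy control. The labels do not give the number of mice per library, so the spread between libraries may be partly technical, and every p-value below measures that spread only.

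The libraries held 1666 to 4456 CD8-gated cells with a median of 4278 to 7268 UMIs per cell, and 2621 to 4717 CD4-gated cells with a median of 3848 to 6169. Each library pair shared 14 to 41 barcodes, 0.199% to 0.431% of the smaller library. The 6 T cell genes summed to 5198 to 7019 counts per 1000000 UMIs (CPM) in the CD8-gated sums. A list of 6 NK cell genes summed to 13.8 to 51.0 CPM in the CD8-gated and 0.322 to 0.725 CPM in the CD4-gated sums. Klre1 made up most of it in CD8-gated cells (11.1 to 50.1 CPM), Klra4 stood at 0.606 to 6.36 CPM, and Ncr1 and Klrb1c were at 0.3 CPM or below. A list of 4 gamma-delta T cell genes (Trdc, Tcrg-C1, Tcrg-C2 and Tcrg-C4) summed to 23.6 to 133.8 CPM and 7.37 to 16.6 CPM. That sum does not tell the 4 genes apart, so no number of gamma-delta T cells is read from it. The part of such cells in the differences between the gates was not tested. In 4 libraries (vehicle on days 2 and 3, PPCA on days 3 and 4) Xist was nearly absent and Y-linked genes were expressed, against the label female. The comparisons of the gates, of PPCA and of day 4 were therefore also run with that split, and the active and onset libraries both carried Xist.

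The promoters of 5 of the 8 genes that differed between the gates are shown because 6 of the 8 transcription factors examined below differed with them. Those of Gzma and Fasl were searched too but are not printed. RefSeq (GRCm38.p6, the C57BL/6J reference and not NOD) gave 10 start sites for 8 of the 9 genes. The bases from 250 before the start site up to the last base before it were searched on both strands for 9 motifs. Each line runs 5′ to 3′ on the strand of the gene, and ends 11 bases before the start site (71 bases for Nkg7, whose T-box letters lie past that end). Capitals mark a T-box site (GGTGTGA or its complement) in Gzmk and RUNX sites (TGTGGT or its complement) in the others.
Gzmk, chr13:113180976-113181215, minus strand: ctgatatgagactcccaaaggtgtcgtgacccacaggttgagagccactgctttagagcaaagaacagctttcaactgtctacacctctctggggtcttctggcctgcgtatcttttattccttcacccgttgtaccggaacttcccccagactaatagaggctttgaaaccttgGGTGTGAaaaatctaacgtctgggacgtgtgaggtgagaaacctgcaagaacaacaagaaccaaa
Gzmb, chr14:56262345-56262584, minus strand: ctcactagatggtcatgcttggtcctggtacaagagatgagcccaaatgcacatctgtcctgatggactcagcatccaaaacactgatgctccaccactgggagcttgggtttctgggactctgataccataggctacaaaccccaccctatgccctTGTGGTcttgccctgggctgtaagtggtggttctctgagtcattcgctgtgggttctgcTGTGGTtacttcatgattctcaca
Gzmm, chr10:79688770-79689009, plus strand: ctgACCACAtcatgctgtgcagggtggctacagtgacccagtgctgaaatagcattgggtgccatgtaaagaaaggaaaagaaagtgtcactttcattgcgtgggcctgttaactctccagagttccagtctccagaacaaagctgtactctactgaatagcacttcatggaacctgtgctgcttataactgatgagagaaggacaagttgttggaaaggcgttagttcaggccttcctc
Prf1, chr10:61297586-61297825, plus strand: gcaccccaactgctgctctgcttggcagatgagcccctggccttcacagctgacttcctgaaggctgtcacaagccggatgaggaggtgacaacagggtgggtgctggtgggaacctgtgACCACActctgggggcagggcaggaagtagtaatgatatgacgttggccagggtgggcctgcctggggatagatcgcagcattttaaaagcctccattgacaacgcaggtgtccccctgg
Nkg7, chr7:43436888-43437067, plus strand: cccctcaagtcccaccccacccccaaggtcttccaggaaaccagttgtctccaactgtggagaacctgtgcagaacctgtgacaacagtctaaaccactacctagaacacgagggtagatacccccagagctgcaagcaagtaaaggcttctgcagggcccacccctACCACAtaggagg
The RUNX letters stood before 6 of the 10 start sites, of Gzma, Gzmb, Gzmm, Nkg7, Prf1 and Srgn. They occur before 14.0% of the 32851 start sites of the reference that were searched. The T-box letters stood before 3 of the 10, of Gzmk, Nkg7 and the other start site of Gzmm, against 3.33% of all. The AP-1 letters TGANTCA stood before Gzmb alone (6.75% of all). The NFAT letters GGAAAA stood before 4 starts (20.4% of all) and the ETS letters GGAAGT before 4 (19.7%). TATAAA stood before 1 start of Srgn (12.4%). CRE (TGACGTCA, 1.55%), NF-kB (GGGANTTCC, 1.43%) and EGR (GCGTGGGCG, 0.536%) letters stood before none. A match is a description of the sequence, and factor binding was not measured.

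Of the 9 genes, 8 were higher in CD8-gated than in CD4-gated cells of the same library, where 46.4% of the 11549 genes tested differed and 23.4% were higher. The difference ran from 0.80 for Fasl to 4.47 for Nkg7 on the log2 scale, with a median of 3.46 over the 9 genes against 0.00043 over all genes tested. Srgn, whose product serglycin packs proteases in the granules of many leukocytes, did not pass the test. These are differences in the mean over all cells of a gate, in which more cells with a gene and more RNA per cell cannot be told apart. The shares of cells with each gene are given below, and the level per cell with the gene is given there for Nkg7, with no test.

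Among the granzymes, Gzmk, a tryptase typical of memory-type CD8 T cells, was measured at 16.3 CPM in the active and 57.5 CPM in the onset library. In vehicle it stood at 42.3, 16.7 and 26.3 CPM on days 2, 3 and 4, and in PPCA at 100.1, 17.6 and 52.9 CPM. In CD4-gated cells it stayed between 1.34 and 3.57 CPM in 7 libraries and reached 14.2 CPM in the day 4 PPCA library. Every CD8-gated value of Gzmk lay above every CD4-gated value, with a log2 difference of 3.46 (SE 0.24, adjusted p = 1.09e-08). Gzma, the other tryptase of this group, ranged from 4.98 CPM to 100.5 CPM in CD8-gated cells and from 0.161 CPM to 8.87 CPM in CD4-gated cells. The ranges of Gzma overlapped between libraries, but the CD8-gated value was higher in all 8 libraries (log2 difference 3.53, SE 0.46, adjusted p = 1.22e-05). Without the cells holding 20 or more Gzma UMIs, described below, that difference was 2.38.

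Gzmb, which cleaves after aspartate and activates caspases, was scarce in both gates. It ranged from 2.89 CPM (PPCA, day 3) to 30.7 CPM (PPCA, day 2) in CD8-gated cells and from 0.285 to 1.67 CPM in CD4-gated cells (log2 difference 4.03, SE 0.25, adjusted p = 3.44e-09). Gzmm, a granzyme with a preference for methionine and leucine, ranged from 6.05 CPM (vehicle, day 4) to 40.3 CPM (vehicle, day 2) in CD8-gated cells. It did not pass 1.54 CPM in any CD4-gated sum (log2 difference 4.38, SE 0.16, adjusted p = 5.86e-12). The granzymes Gzmc, Gzmd, Gzme, Gzmf, Gzmg and Gzmn had too few counts to be tested in any comparison.

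Prf1 encodes perforin, without which granzymes do not reach their targets. It ranged from 41.2 CPM (vehicle, day 4) to 95.6 CPM (PPCA, day 2) in CD8-gated cells and from 21.8 CPM (PPCA, day 4) to 46.7 CPM (vehicle, day 2) in CD4-gated cells. The 2 ranges overlapped, but within each library the CD8-gated value was higher, with a log2 difference of 0.89 (SE 0.061, adjusted p = 1.10e-08). Fasl was the least separated of the 8 genes. It stood at 7.13 to 39.3 CPM in CD8-gated and 6.06 to 28.7 CPM in CD4-gated cells, and in the active library it was lower in CD8-gated (9.23 CPM) than in CD4-gated cells (10.9 CPM). Its log2 difference was 0.80 (SE 0.19, adjusted p = 0.0029), and it was 0.84 with an adjusted p of 0.205 when the library was not kept as a block.

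Nkg7, a membrane protein of cytotoxic granules needed for their efficient release, ranged from 597 to 1006 CPM in CD8-gated cells and from 17.6 to 62.1 CPM in CD4-gated cells (log2 difference 4.47, SE 0.15, adjusted p = 1.82e-12). The day 4 PPCA library was the highest of the CD4-gated sums. Ctsw, a papain-family protease of CD8 T and NK cells, ranged from 255.7 to 553 CPM and from 34.2 to 72.9 CPM in the 2 gates (log2 difference 2.84, SE 0.045, adjusted p = 3.03e-15). Neither gene overlapped between the gates. Srgn ranged from 349 to 741 CPM in CD8-gated and from 356 to 904 CPM in CD4-gated cells, with a log2 difference of 0.03 (SE 0.044, adjusted p = 0.589). Within libraries it differed in both directions, as on day 2 of PPCA (451 CPM in CD8-gated, 382 CPM in CD4-gated cells) and on day 4 of PPCA (741 and 904 CPM). The highest Srgn values in both gates were those of the day 4 libraries.

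**Figure D1:**
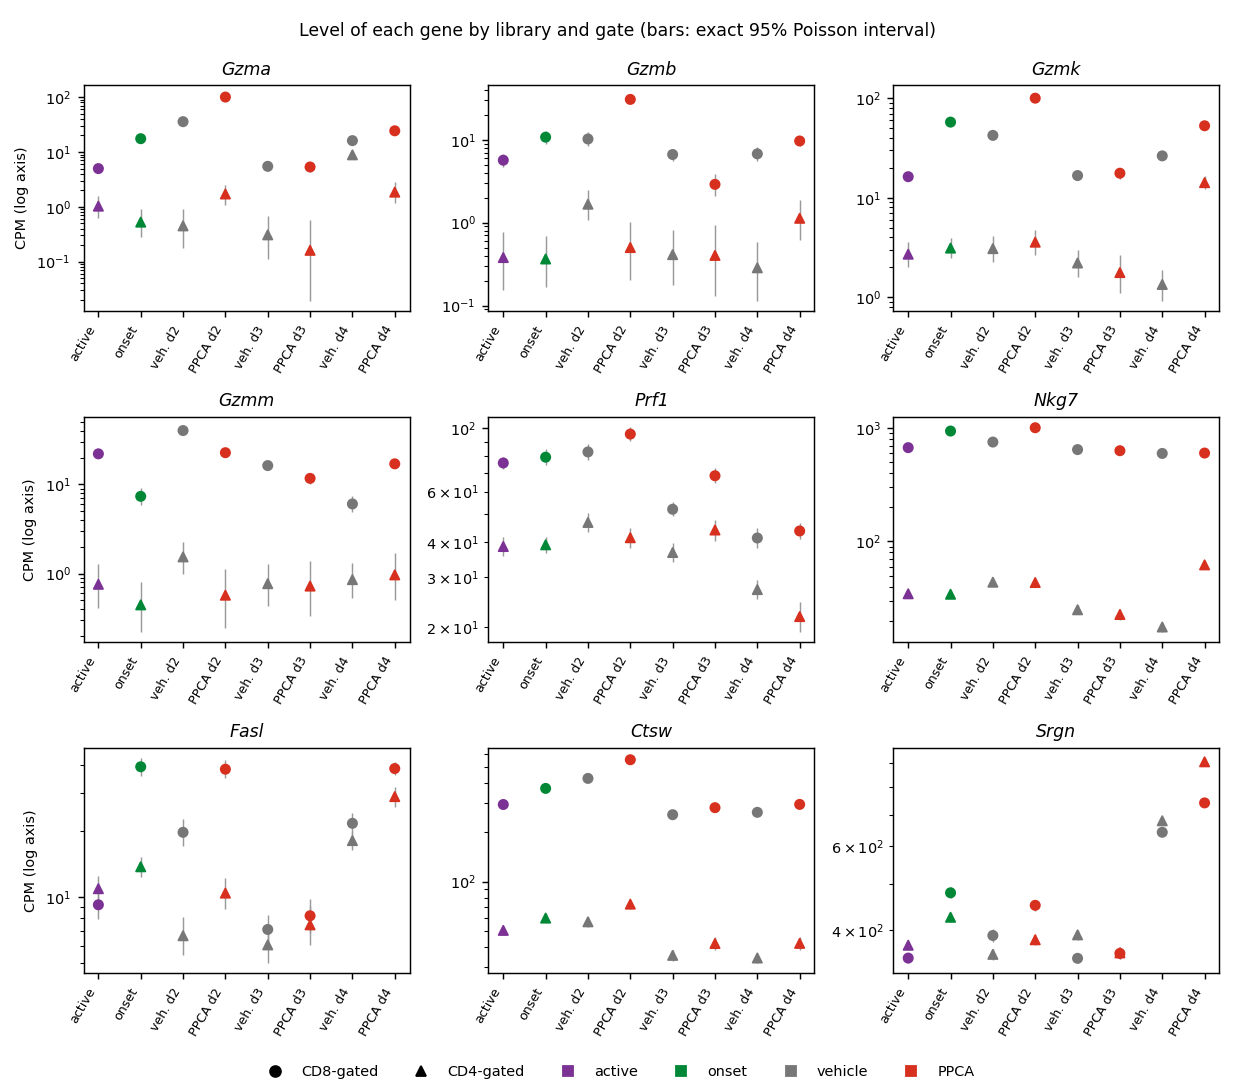
CPM of each of the 9 genes (log axis) in the 8 libraries, for CD8-gated (circles) and CD4-gated (triangles) cells, with exact 95% Poisson intervals that cover counting error only; colours mark the group. Nkg7, Ctsw, Gzmk, Gzmb and Gzmm are separated between the gates in every library, whereas Srgn is higher in CD8-gated cells of some libraries and in CD4-gated cells of others, and is highest in the 2 libraries of day 4.

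Related genes were counted from lists. Of 15 genes of granule processing, transport, release and control, 14 were tested, 6 were higher and 2 lower in CD8-gated cells, with a median log2 difference of 0.05. Over all genes 46.4% were called and 23.4% were higher, as given above. The 4 with the lowest p were all higher. They were Cst7 (2.51), which encodes the cysteine protease inhibitor cystatin F, Ctsc (0.59), the protease that activates granzymes, Lyst (0.26), a regulator of lysosome trafficking, and Serpinb6b (1.10), a serpin. Of 8 transcription factors known to act on cytotoxic genes, 6 were higher and none lower (median 2.08), led by Runx3 (1.76), Eomes (3.77), Hopx (3.28) and Tbx21 (2.39). The 2 that did not pass were Prdm1 (0.20, adjusted p = 0.373) and Bhlhe40 (0.47, adjusted p = 0.0594).

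The share of cells with a gene was taken after thinning each cell to 2000 UMIs, which left out 308 CD8-gated and 321 CD4-gated cells. CD4-gated cells with Ccr7, a homing receptor of naive and central memory cells, served as background, since most of them should lack granule genes (1705 to 3411 cells per library). Nkg7 was found in 57.6% to 69.9% of CD8-gated cells against 0.938% to 2.81% of background cells. Ctsw was found in 36.4% to 58.5% against at most 10.96%, and Gzmk in 2.77% to 14.4% against at most 0.398%. Gzma was found in 0.286% to 1.26%, Gzmb in 0.357% to 2.27% and Gzmm in 0.61% to 4.80% of CD8-gated cells, where the background did not pass 0.235%. The ranges of the other 3 genes overlapped those of the background. Prf1 was found in 8.50% to 17.98% against 3.92% to 10.1%, Fasl in 1.70% to 8.34% against 1.15% to 4.10%, and Srgn in 47.0% to 71.9% against 38.1% to 74.7%. Within a library Prf1 and Fasl were above the background in 8 of 8 and Srgn in 6 of 8. A thinned cell with Nkg7 held on average 2.07 to 3.22 UMIs of it in the CD8-gated and 1.58 to 2.28 in the CD4-gated cells of a library, ranges that overlapped. Without thinning, Gzmk was found in 4.47% to 18.3% and Nkg7 in 77.7% to 90.2% of CD8-gated cells.

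In CD4-gated cells the shares of Prf1 (3.77% to 8.82%), Fasl (1.23% to 5.47%), Ctsw (6.28% to 11.6%) and Srgn (42.5% to 76.1%) were close to those of the background cells given above, and no difference from the background is read from them. The share with Nkg7 (1.80% to 5.54%) lay above the background in each of the 8 libraries. The share of CD4-gated cells with Gzmk was 0.154% to 0.64% in 7 libraries and 1.97% in the day 4 PPCA library, where 0.398% of the background cells held it. The background cells were slightly deeper (median 4048 to 6342 UMIs) than the CD4-gated cells as a whole, of which they are a part.

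The granzymes differed in how their UMIs were spread over cells. Gzma was held by very few. The 22270 CD8-gated cells held 2801 Gzma UMIs in 239 cells, and 37 of these cells, each with 20 or more, held 80.6% of them. In the day 2 PPCA library 11 such cells held 1024 of 1180 UMIs, with up to 232 in a cell, and in the day 2 vehicle library 5 cells held 336 of 371. The other libraries had 0 to 9 such cells. The level of Gzma in a CD8-gated sum is thus the level of a handful of cells.

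All 37 of these cells also held Nkg7, Srgn and Ccl5, a chemokine of effector and memory T cells, 35 held Ctsw, 34 Gzmb and 29 Gzmk. Prf1 was found in 24 and Fasl in 15, but Gzmm in 3. Klrk1, which encodes the receptor NKG2D, was found in 27 and Cd8b1 in 35. Of the NK cell genes examined, Klre1 was found in 21 of the 37, and Ncr1 and Tyrobp in 0. The gamma-delta T cell gene Trdc was found in 2. The T cell gate had left out cells with over 1 UMI of 6 B cell and myeloid genes, Fcer1g among them. Cells rich in those genes could not be among the 37, and the bearing of that filter on these counts was not tested. In CD4-gated cells, 201 of the 218 Gzma UMIs of the day 4 vehicle library came from 3 cells. All 3 held Nkg7, Fasl, Ctsw and Ccl5, none held Gzmb or Prf1, and 1 held Ncr1.

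The 10 highest CD8-gated cells of a library held a median of 85.2% of its Gzma, 64.9% of its Gzmb, 28.1% of its Gzmm, 15.2% of its Fasl and 15.0% of its Gzmk UMIs. For Prf1, Srgn, Nkg7 and Ctsw the median was 4.22%, 3.19%, 3.02% and 2.38%. In the onset library the 10 highest cells held 68.2% of the Gzmm UMIs, the most of any library. The number of cells and total counts of a gene bear on these percentages, so they describe each gene and are not ranked by a test.

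**Figure D2:**
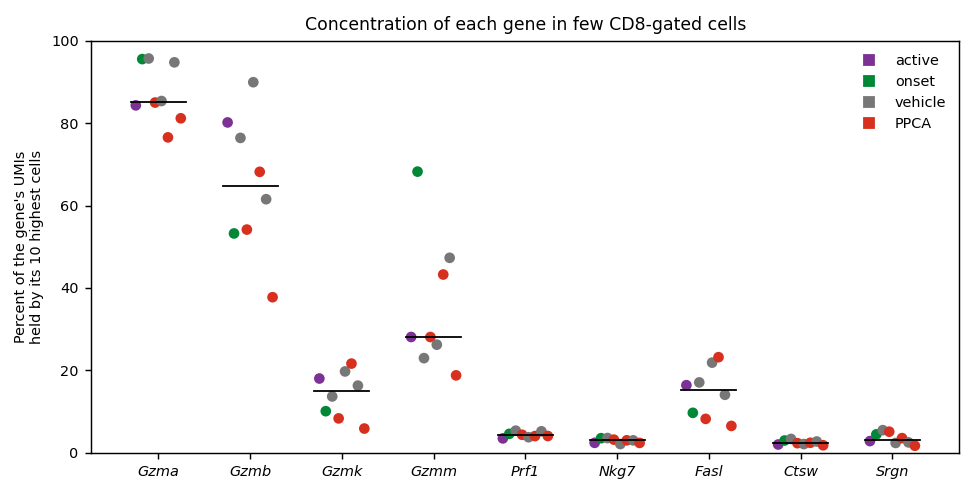
Percent of each gene's UMIs held by its 10 highest CD8-gated cells, 1 point per library (colour: group), with the median over 8 libraries as a line. Gzma lies between 76.5% and 95.7% in all 8 libraries, Gzmb between 37.8% and 89.9%, and Prf1, Nkg7, Ctsw and Srgn below 6% in each.

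Granule genes were found together in CD8-gated cells more often than independent detection gives. For each pair and library, the number of thinned cells with both genes was divided by the number expected from the product of their shares. Of 36 pairs, 24 had enough cells (at least 3 expected) in 6 or more libraries for a test. Of these, 22 were above expectation at an adjusted p under 0.05, each with an adjusted p of 0.00852 and above expectation in 8 of 8 libraries (exact two-sided sign-flip test over libraries, whose smallest unadjusted p with 8 libraries is 0.00781). Those p-values were adjusted over the member pairs alone. The same ratio was taken for 26766520 other pairs of genes found at least as widely as Gzma, the least widely found member. These include pairs of 1 member with another gene. Of these, 1.21% were above expectation in every library, against 22 of the 24 member pairs, and the median ratio was 0.991 against 1.33. Thinning to 1000 UMIs in place of 2000 left 15 pairs past the threshold. Of the other 7, 4 had too few libraries for a test (Gzma with Ctsw and Srgn, Gzmb with Ctsw, Prf1 with Fasl), with log2 ratios of 0.50 to 1.06 that were each at least as large as at 2000 UMIs. The other 3 (Prf1 with Ctsw, Gzmm with Nkg7 and Ctsw) had an adjusted p of 0.0557 to 0.066 (exact sign-flip test).

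Gzmk and Prf1 were found together 2.24 times as often as independent detection gives (mean log2 ratio 1.16, SD 0.37, n = 8 libraries). Prf1 and Fasl, of the granule and the death ligand arm, reached 2.08 times (1.06, SD 0.31). The ratios of Gzmk with Ctsw (1.59 times) and of Fasl with Ctsw (1.53 times) were smaller, and those among the widely detected genes Nkg7, Ctsw and Srgn were 1.03 to 1.13 times. A gene found in most cells cannot give a large ratio. Pairs of rarer genes reached higher values in few libraries and were not tested. Gzmk with Fasl was at 4.17 times in 5 libraries, Gzmb with Fasl at 4.14 times in 2 and Gzmb with Gzmk at 3.93 times in 3.

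The 2 tested pairs that did not pass both held Gzmm. Its pairs with Nkg7 (1.26 times) and Ctsw (1.42 times) passed the test, but its pairs with Prf1 (1.59 times in 6 libraries, adjusted p = 0.0652, exact sign-flip test) and Srgn (1.12 times, above expectation in 6 of 8 libraries, adjusted p = 0.141, exact sign-flip test) did not. With Fasl it was at 0.82 times in 3 libraries, below expectation in 2 of them, and with Gzmk at 1.53 times in 3 libraries, above expectation in all 3, both untested. Without the active library its pair with Srgn passed (adjusted p = 0.0313, exact sign-flip test).

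**Figure D3:**
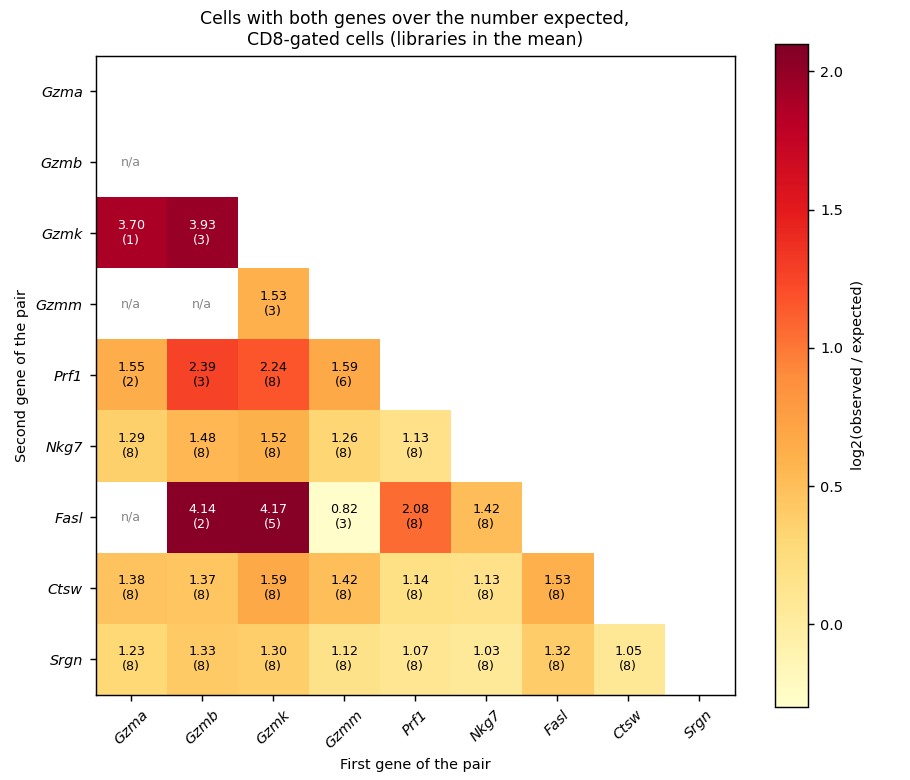
Ratio of observed to expected CD8-gated cells with both genes of a pair, as the mean over the libraries (their number in parentheses) with at least 3 cells expected; colour gives the log2 ratio, and n/a marks 4 pairs with no such library. Gzmk, Gzmb and Fasl form the highest ratios with each other (3.93 to 4.17), and Gzmm with Fasl (0.82) is the only ratio below 1.

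Cells were also split by 1 UMI of partner genes that mark T cell states, 7 in the CD8 gate and 6 in the CD4 gate, which gave 117 pairs of member and partner. Of these, 79 passed the threshold, 59 higher and 20 lower with the partner (exact two-sided sign-flip test over 8 libraries, adjusted over the 126 pairs tested). At the same unadjusted p (at most 0.0313), 19.3% of 137462 pairs of another gene with one of these partners passed, 11.2% higher and 8.08% lower, among genes found at least as widely as the least widely found member of the gate. With adjustment over all these pairs no pair passed, of members or of others. Each value quoted here from this test as passing had an adjusted p of 0.0137, unless another is given.

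All 9 genes were found more often in CD8-gated cells with Ccl5, in 8 of 8 libraries. Of the other genes, 31.3% were higher with Ccl5 at the same unadjusted p. Gzmk was found in 25.5% ± 6.3 (SD, n = 8) of cells with Ccl5 and 0.153% ± 0.10 of those without. Fasl was found in 17.1% ± 4.8 and 0.463% ± 0.21. Nkg7 was found in 85.9% ± 3.0 and 56.6% ± 4.7, and Prf1 in 22.2% ± 4.3 and 9.93% ± 2.7. In points, the differences were 29.3 for Nkg7, 26.1 for Ctsw, 25.4 for Gzmk, 16.6 for Fasl, 16.02 for Srgn and 12.3 for Prf1. Of the 9 genes, 9 were also found more often with Klrk1 (24.7% of other genes), where Gzmk reached 39.1% against 4.00%, and 9 less often with Ccr7 (13.2% of other genes). The adjusted p of Gzmm and of Srgn with Ccr7 was the highest of these, at 0.0249.

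With Itgae, an integrin of tissue-resident cells, 4 of the 9 genes passed, 2 in each direction. Gzmm (0.619% against 2.01%, adjusted p = 0.0447, exact sign-flip test) and Prf1 (12.0% against 13.0%, adjusted p = 0.0249, exact sign-flip test) were lower. Fasl (8.54% against 4.33%, in 8 of 8 libraries) and Ctsw (49.3% against 43.7%, adjusted p = 0.036, exact sign-flip test) were higher. Of other genes, 2.22% were lower and 8.09% higher with Itgae at the same unadjusted p. Gzma, Gzmb and Gzmk did not pass with Itgae. With Cxcr6 8 of the 9 genes were higher, and with Pdcd1, an inhibitory receptor, 7 were (11.2% of other genes). Gzmm did not pass with Cxcr6 (1.36% against 2.05%) or Pdcd1 (1.23% against 1.92%), nor Gzma with Pdcd1 (1.13% against 0.653%). Among the granzymes Gzmk (20.3% against 3.13%), Gzmb (2.99% against 0.505%) and Gzma (1.38% against 0.531%, higher in 6 of 8 libraries, adjusted p = 0.0447, exact sign-flip test) were higher with Cxcr6, a receptor of cells that stay in tissue, as were 24.4% of other genes. Of the 9 genes, 1 (Srgn, higher, adjusted p = 0.0249, exact sign-flip test) passed with Cd69, an early activation and retention marker, where 2.75% of other genes were higher.

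In CD4-gated cells Nkg7, Ctsw, Srgn, Gzmk and Fasl were found more often with Cxcr6 and with Ifng, and Gzmb with Cxcr6. Of other genes, 9.71% were higher and 10.6% lower with Cxcr6 at the same unadjusted p, and 6.87% and 12.7% with Ifng. Nkg7 was found in 35.7% ± 8.7 (SD, n = 8) of cells with Cxcr6 and 3.02% ± 1.0 of those without. It was found in 40.6% ± 12 of cells with Ifng, the gene of the Th1 cytokine interferon gamma, and 3.09% ± 1.0 of those without. Ctsw was found in 29.0% ± 6.5 of cells with Cxcr6 and 8.11% ± 1.7 of those without, and Srgn in 81.3% ± 9.7 and 52.2% ± 13. Gzmk was found in 10.6% ± 5.9 and 0.423% ± 0.46, and its adjusted p with Ifng was 0.0249 (exact sign-flip test). Fasl was found in 8.19% ± 7.5 of cells with Cxcr6 and 2.39% ± 1.3 of those without (adjusted p = 0.0447, exact sign-flip test), and in 8.12% ± 6.0 and 2.34% ± 1.1 with and without Ifng (adjusted p = 0.0249, exact sign-flip test). The adjusted p of Gzmb with Cxcr6 was 0.0447 (exact sign-flip test), from 8 cells with both. Prf1 ran the other way. It was found in 2.38% of cells with Ifng against 6.86%, in 2.40% with Foxp3 against 6.91%, and in 3.54% with Cxcr6 against 6.85% (adjusted p = 0.036, exact sign-flip test). Srgn was higher with Foxp3, the factor of regulatory T cells, at 70.1% ± 13 against 52.2% ± 13. Nkg7 was higher with Foxp3 too (7.22% against 3.52%, adjusted p = 0.0249, exact sign-flip test). With Foxp3, 12.6% of other genes were higher and 8.21% lower. Gzmm passed as lower with Ifng and with Foxp3, but it was found in 0 of 428 and 0 of 668 such cells, which allows shares of up to 0.701% and 0.449%. Those limits lie above its shares without the partner (0.181% and 0.183%), so no difference is read from them. Of the other partners in CD4-gated cells, Ccl5 had 6 members higher (5.77% of other genes), Pdcd1 4 higher and 1 lower (7.44% and 11.3%), and Ccr7 3 lower (6.39%). The cells with Cxcr6, Foxp3 or Ifng were few, with 508, 668 and 428 cells over all 8 libraries. Those with Ifng numbered 15 to 182 per library, and the contrast of Nkg7 with Ifng rests on 153 cells with both.

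**Figure D4:**
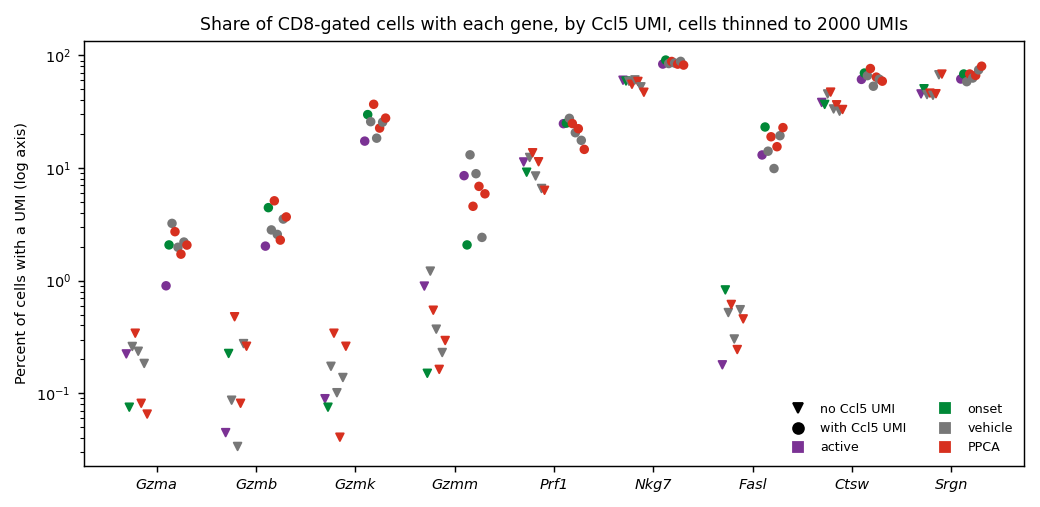
Share of CD8-gated cells with a UMI of each gene (percent, log axis) among cells without Ccl5 (triangles) and with Ccl5 (circles), after thinning to 2000 UMIs, 1 point per library, coloured by group. Gzmk separates most, at 17.3% to 36.8% with Ccl5 and 0.0408% to 0.342% without, and Srgn least.

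The genes most like each member across CD8-gated cells were read from the mean of 8 within-library Pearson correlations of log1p(UMIs per 10000), for members found in at least 5% of CD8-gated cells before thinning, as a mean over libraries (8.51% for Fasl). These correlations share library and cell depth and are a description. The chemokine gene Ccl5 came first for Gzmk (0.66), Nkg7 (0.53), Fasl (0.51), Srgn (0.25) and Prf1 (0.22). Ccl4, another chemokine gene, and Ctla2a came next for Gzmk (0.56 and 0.55). S100a6 and Ccl4 came next for Nkg7 (0.48 and 0.44) and Fasl (0.50 and 0.48). For Ctsw the leading genes were Nkg7 (0.37), Ccl5 (0.35) and S100a6 (0.34).

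PPCA was compared with vehicle over the 3 days, with the day as a factor. In CD8-gated cells 0 of the 9 genes and 0 of 11634 genes tested (0%) passed the threshold with edgeR, while 921 genes (7.92%) and 3 members had an unadjusted p under 0.05. DESeq2 and limma-voom also called 0 members. The 3 members were Gzmk (log2 difference 0.72, SE 0.22, adjusted p = 0.570), Gzma (0.71, SE 0.25, adjusted p = 0.604) and Fasl (0.62, SE 0.17, adjusted p = 0.513). Over the 9 genes the median was 0.14, against 0.00076 over all genes. With the sex-linked split as a further factor, the same 3 passed (adjusted p of 0.00469, 0.00588 and 0.00917), with differences of 0.73, 0.74 and 0.63. That fit had 1 residual degree of freedom and called 282 of 11634 genes (2.42%). With no filter on low counts the same 3 also passed (0.00115, 0.00428 and 0.00569), where 142 of 19366 genes were called (0.733%).

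The days differed. The log2 ratio of CPM of Gzmk was 1.24, 0.08 and 1.01 on days 2, 3 and 4, that of Fasl 0.96, 0.21 and 0.83, and that of Gzma 1.49, -0.04 and 0.59. Day 3 gave the smallest ratio of each, while the median ratio over genes of at least 50 CPM was 0.17 on that day, 0.08 on day 2 and -0.03 on day 4. Gzmm moved in opposite directions, at -0.83 and -0.48 on days 2 and 3 and 1.496 on day 4 (fitted difference -0.10, adjusted p = 0.959). Gzmb was at 1.59, -1.20 and 0.52. Nkg7, Ctsw, Prf1 and Srgn stayed within -0.03 and 0.42 on each day. At least 2-fold apart, with 50 CPM or more in the higher library, were Gzma and Gzmk on day 2 (1.73% of genes at that level), no member on day 3 (0.347%) and Gzmk on day 4 (0.742%).

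Without the day 4 pair, Gzma (0.83, adjusted p = 2.96e-05) and Gzmk (0.58, adjusted p = 0.00171) passed as higher and Gzmm as lower (-0.78, adjusted p = 5.52e-05), where 324 of 11547 genes were called (2.81%) with 1 residual degree of freedom. Without the day 3 or the day 2 pair no member passed. The 37 cells rich in Gzma lay unevenly, with 11, 0 and 9 in PPCA and 5, 2 and 6 in vehicle on days 2, 3 and 4. With those cells left out the Gzma difference was 1.42 (adjusted p = 0.331).

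The share of CD8-gated cells with Gzmk was 7.89%, 2.77% and 4.53% in vehicle and 14.4%, 2.86% and 8.48% in PPCA on days 2, 3 and 4. It was higher with PPCA on 3 of 3 days, by 3.52 points (SD 3.2, n = 3, exact sign-flip p = 0.25, the smallest this design allows, adjusted p = 0.563). The vehicle and PPCA values overlapped. The shares with Prf1, Fasl, Ctsw and Srgn were also higher on 3 of 3 days, by 1.26, 2.29, 4.71 and 3.48 points. These 5 of 9 members are read against 24.9% of 9279 other genes higher on each of the 3 days (31% in 1 direction), and no test of that count was made. In CD4-gated cells Fasl and Ctsw were higher and Gzmm was lower on each day, 3 of 9 members, against 29.2% of 12087 other genes in 1 direction and 21.8% higher. The arms did not overlap for 0 members in CD8-gated (4.13% of other genes) and for 1, Gzmm, in CD4-gated cells (5.6%). The sign of Prf1, Ctsw and Srgn turned without thinning (to -0.95, -3.56 and -3.83 points). The unthinned comparison sets deeper vehicle cells against shallower PPCA cells, at median depths of 5916, 6227 and 5541 against 4513, 5132 and 4278 UMIs.

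The share of CD8-gated cells with Ccl5 was higher with PPCA on days 2 and 4, as were the shares with Gzmk and Fasl, and lower on day 3, when those of Gzmk and Fasl were 0.088 and 0.44 points higher. It was 30.1%, 14.6% and 17.3% in vehicle and 38.6%, 12.5% and 29.9% in PPCA. Within the cells with Ccl5, Gzmk was found in 25.8%, 18.4% and 25.6% in vehicle and 36.8%, 22.6% and 27.8% in PPCA, higher on 3 of 3 days. Fasl was found in 14.1%, 9.90% and 19.4% and in 19.0%, 15.5% and 22.9%, also higher on 3 of 3 days, as was Srgn. Gzma was lower there on 3 of 3 days, at 3.23%, 1.98% and 2.20% in vehicle and 2.72%, 1.72% and 2.07% in PPCA, and the other 5 members went both ways. Within the cells with Ccl5, 3 members were thus higher and 1 lower on each day, against 16.9% and 9.36% of 9278 other genes (26.3% in 1 direction). Ccl5, Cd44, Cxcr6 and Cxcr3 together summed to 1191 to 2769 CPM in vehicle and 1401 to 4554 CPM in PPCA. Other marker lists differed between the arms as well. The gamma-delta T cell genes summed to 48.4, 25.0 and 36.2 CPM in vehicle and 133.8, 23.6 and 41.2 CPM in PPCA, and the NK cell genes to 41.8, 13.9 and 20.2 CPM and 50.0, 13.8 and 18.2 CPM. Such sums do not tell the genes of a list apart, and no number of cells is read from them. The regulatory T cell genes summed to 49.5, 31.5 and 95.5 CPM in vehicle and 73.4, 40.5 and 134.5 CPM in PPCA, higher on 3 of 3 days, and the pancreas genes to 22.5, 77.3 and 153.6 CPM and 87.4, 55.7 and 96.7 CPM. Genes of dissociation and early response, listed below, summed to 1365, 1388 and 3325 CPM in vehicle and 673, 1214 and 4980 CPM in PPCA. The part of these cell types and states in the levels of Gzmk and Fasl was not tested.

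In CD4-gated cells 0 of 8 members tested and 0 of 11591 genes (0%) passed with edgeR, DESeq2 called 0 members and limma-voom 0, and 794 genes (6.85%) and 1 member had an unadjusted p under 0.05. That member was Fasl (0.47, SE 0.15, adjusted p = 0.699), higher on 3 of 3 days. Gzmb was not tested there for lack of counts. The largest ratio of a day was that of Gzmk on day 4, with 176 UMIs in PPCA and 33 in vehicle (log2 ratio 3.40), against 0.22 and -0.32 on days 2 and 3. Nkg7 had a ratio of 1.82 on day 4 and -0.01 and -0.14 before. Nkg7 was the 1 member at least 2-fold apart with 50 CPM or more in the higher library on day 4, as were 1.56% of genes at that level, and no member was on day 2 (1.36%) or day 3 (0.337%). Other markers differed between the same day 4 sums of CD4-gated cells. From vehicle to PPCA, Ccl5, Cd44, Cxcr6 and Cxcr3 together went from 99.4 to 423 CPM, a list of 4 regulatory T cell genes from 114.4 to 306 CPM and the genes of dissociation and early response from 4467 to 7524 CPM, and the share of cells with Ccl5 from 3.34% to 7.58%. Their part in the ratios of Gzmk and Nkg7 was not tested.

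The PPCA effect was also compared between the gates. No member passed, with 2 of 12176 genes called (0.0164%), 595 genes and 2 members at an unadjusted p under 0.05, and 0 members called by DESeq2 and limma-voom. Gzma had the lowest p (difference of effects 1.92, SE 0.42, adjusted p = 0.329). That value was -0.14 without the day 4 pair and 0.41 without the cells rich in Gzma, 3 of which made up most of the Gzma in CD4-gated cells of the day 4 vehicle library. Prf1 was next (0.28, SE 0.076, adjusted p = 0.667). Without the day 2 pair 3 members passed, Gzma (2.73) with a higher and Gzmk (-1.41) and Nkg7 (-0.94) with a lower effect in CD8-gated cells, where 76 of 12372 genes were called (0.614%). With no filter on low counts 4 members passed, Gzma (1.95, adjusted p = 9.52e-12) and Prf1 (0.30, adjusted p = 0.0436) with a higher and Nkg7 (-0.44, adjusted p = 5.23e-07) and Gzmk (-0.68, adjusted p = 0.023) with a lower effect, where 0.345% of genes were called. With gates of at least 2 UMIs Gzma passed (2.17, adjusted p = 0.044, 0.18% of genes), and with the sex-linked split as a factor Nkg7 did (-0.49, adjusted p = 0.000283, 0.509% of genes).

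**Figure D5:**
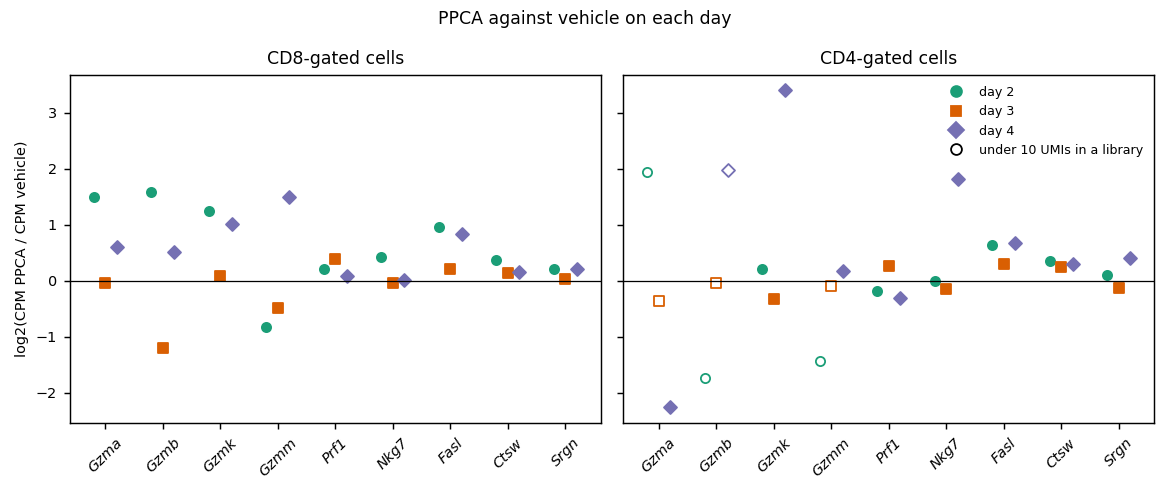
Log2 ratio of CPM in PPCA over vehicle for each gene on days 2, 3 and 4, in CD8-gated (left) and CD4-gated (right) cells; open symbols have under 10 UMIs in a library. In CD8-gated cells Gzmk and Fasl lie above 0 on all 3 days with day 3 lowest, and Gzmm turns from -0.83 on day 2 to 1.496 on day 4.

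Day 4 stood apart from days 2 and 3 in both arms. Among CD8-gated cells Fasl and Srgn were higher and Prf1 was lower on day 4, 3 of the 9 genes, where 16.3% of 11634 genes were called and 9.11% were higher. In CD4-gated cells Gzma, Fasl and Srgn were higher and Prf1 lower, 4 of 8 genes tested, where 13.3% of 11591 genes were called and 8.13% were higher. The members' counts are read against these shares, since many genes of all kinds differed on day 4. The contrast has 1 library per arm on day 4, and the median of the members was -0.15 in CD8-gated and 0.77 in CD4-gated cells, against -0.01 over all genes in both. With no filter on low counts, and with the sex-linked split as a factor, 1 more member passed in each gate. In CD8-gated cells Gzmm was lower (-0.66, adjusted p = 0.027, 14.3% of genes called, and -0.53, adjusted p = 0.0168, 30.5%). In CD4-gated cells Gzmk was higher (1.24, adjusted p = 0.0142, 12.3% of genes called, and 1.34, adjusted p = 0.013, 23.9%).

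Srgn in CD8-gated cells stood at 390, 451, 349 and 358 CPM in the libraries of days 2 and 3 and at 643 and 741 CPM on day 4. All day 4 values lay above all others (log2 difference 1.01, SE 0.11, adjusted p = 0.0016). In CD4-gated cells it went from 356 to 391 CPM to 680 and 904 CPM (1.24, SE 0.14, adjusted p = 0.0027). The share of the background cells (CD4-gated, with Ccr7) with Srgn was 68.9% and 74.7% on day 4 and 38.1% to 44.6% on days 2 and 3.

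Fasl in CD4-gated cells was measured at 6.67, 10.4, 6.06 and 7.48 CPM on days 2 and 3 and at 18.1 and 28.7 CPM on day 4 (1.76, SE 0.15, adjusted p = 0.00089). The share of the background cells with Fasl was 3.14% and 4.10% on day 4 and 1.15% to 1.75% on days 2 and 3. In CD8-gated cells it stood at 19.8, 38.3, 7.13 and 8.22 CPM and at 21.7 and 38.6 CPM (1.15, SE 0.17, adjusted p = 0.0050). Those ranges overlapped, and without day 3 the difference was 0.37 (adjusted p = 0.145). Prf1 moved down in both gates. In CD8-gated cells it stood at 82.7, 95.6, 52.0 and 68.2 CPM and at 41.2 and 43.6 CPM on day 4 (-0.62, SE 0.092, adjusted p = 0.0053). In CD4-gated cells it went from 36.6 to 46.7 CPM to 27.1 and 21.8 CPM (-0.62, SE 0.12, adjusted p = 0.018). Without day 2 the Prf1 difference was -0.44 (adjusted p = 0.069) in CD8-gated and -0.65 (adjusted p = 0.0655) in CD4-gated cells. Without day 3 it was -0.59 (adjusted p = 0.0849) in CD4-gated cells, so in CD4-gated cells the call was lost at a difference of like size.

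The Gzma call in CD4-gated cells (3.38, SE 0.73, adjusted p = 0.0261) rested on the 3 cells of the day 4 vehicle library. Without them the difference was 1.34 (adjusted p = 0.143), and without day 3 the adjusted p was 0.211. In CD8-gated cells the day 4 difference of Gzma was 0.25 (adjusted p = 0.554). It was 1.92 (adjusted p = 0.0105) without day 2 and -1.32 (adjusted p = 0.0263) without day 3, beside the high day 2 and low day 3 levels given above. Gzmk in CD8-gated cells also passed without day 2 (1.18, adjusted p = 0.0427), where 8.17% of genes were called.

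Of 10 genes of dissociation and early response, 8 (Fos, Jun, Junb, Egr1, Dusp1, Ier2, Atf3 and Nr4a1) were higher in both day 4 libraries than in all 4 libraries of days 2 and 3, in each gate. The heat shock genes Hspa1a and Hspa1b were not, at 0.887 to 3.19 CPM on day 4 and 0.223 to 79.7 CPM before in CD8-gated cells. The sum of the 10 was 3325 and 4980 CPM on day 4 against 673 to 1388 CPM on days 2 and 3 in CD8-gated cells, and 4467 and 7524 CPM against 1111 to 2453 CPM in CD4-gated cells. At least 8 of the 10 were at 1 CPM or more in each day 4 sum and at least 7 on days 2 and 3. In CD8-gated cells 2 more lists were higher in both day 4 libraries than in all 4 before. The 4 regulatory T cell genes summed to 95.5 and 134.5 CPM against 31.5 to 73.4 CPM, of which Ctla4 made up 61.2 and 113.4 CPM while Foxp3 was at 2.73 and 2.47 CPM. The 12 pancreas genes, most of them of the exocrine part, summed to 153.6 and 96.7 CPM against 22.5 to 87.4 CPM. In CD4-gated cells the same pancreas genes lay below all earlier libraries on day 4, at 54.3 and 82.7 CPM against 107.2 to 295.6 CPM. The B cell gene Cd79b was lower in CD8-gated cells, at 15.3 and 10.6 CPM on day 4 against 21.0 to 24.4 CPM before, while Cd79a was at 0.592 CPM or below and Ms4a1 at 0.065 CPM or below in the libraries of all 3 days. The part of these genes in the day 4 differences of Fasl, Srgn and Prf1 was not tested. Of the 8 transcription factors, Bhlhe40 (2.52) and Prdm1 (0.90) were higher on day 4 in CD8-gated cells, and Bhlhe40 (2.70), Prdm1 (0.91), Id2 (0.72) and Zeb2 (1.26) in CD4-gated cells. Of the 14 granule genes tested, 1 passed in each gate, Serpinb9, the inhibitor of granzyme B, which was lower (-0.91 and -0.90). Over all genes 16.3% and 13.3% were called in the 2 gates. None of these 2 lists had a gene past the threshold for PPCA.

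Active and onset diabetes were each 1 library, so no test is possible and intervals cover counting error only. In CD8-gated cells of the active library, the 4 widest ratios to the onset library were those of Fasl, Gzmk, Gzma and Gzmm. The level of Fasl was 9.23 CPM in active and 39.3 CPM in onset (log2 ratio -2.09), Gzmk at 16.3 and 57.5 CPM (-1.82) and Gzma at 4.98 and 17.5 CPM (-1.81), while Gzmm was at 22.1 and 7.36 CPM (1.58). The Gzma ratio rests on few cells, since 10 cells held 84.3% and 95.5% of its UMIs, and it was -1.09 after thinning, where that of Gzmb went from -0.92 to -1.39. Gzmk was the only member at least 2-fold apart with 50 CPM or more in the higher library, as were 1.70% of the genes at that level (0.326% higher in active). After thinning Fasl passed 50 CPM in onset and met that rule too (log2 ratio -1.93), as did 1.94% of genes in CD8-gated cells, while in CD4-gated cells 0 members and 0.794% of genes did. The share of CD8-gated cells with Ccl5 was 16.6% in active and 33.7% in onset. Within cells with Ccl5, Gzmk was found in 17.3% and 29.8%, Fasl in 13.1% and 23.1% and Gzmm in 8.56% and 2.08%. Prf1 differed by -0.07 and the other genes by -0.92 to -0.33. Between the same CD8-gated sums the NK cell genes went from 22.6 CPM in active to 51.0 CPM in onset, the gamma-delta T cell genes from 57.2 to 103.9 CPM, the regulatory T cell genes from 32.9 to 68.3 CPM and the pancreas genes from 15.6 to 37.5 CPM. Not all genes of a list moved with its sum. Of the 6 NK cell genes, 2 were at 1 CPM or more in active and 1 in onset, and 0 and 2 had no UMI. Ccl5, Cd44, Cxcr6 and Cxcr3 together went from 1382 to 4376 CPM and the genes of dissociation and early response from 893 to 1838 CPM. Their part in these ratios was not tested. In CD4-gated cells 0 members met that rule, as did 0.83% of genes (0.433% higher in active), and no log2 ratio went beyond 0.97. The rarer members moved with the processing. Gzma (19 UMIs in active and 13 in onset) was at 0.97, but at 1.40 after thinning, 2.03 by the lineage gates alone and 2.04 with no doublet removal. Gzmm (14 and 11 UMIs) went from 0.77 to -0.09 and Fasl from -0.33 to 0.16 after thinning.

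The authors' deposited table of marker genes for 7 named clusters lists 6 of the 9 genes, and only values of at least 0.25 on its log2 scale. No gene listed is found in under 10% of the cells of its cluster. In that table Nkg7 (3.07), Ctsw (1.98), Gzmk (1.95), Fasl (1.28), Prf1 (0.74) and Srgn (0.67) mark the cluster named CD8 TRM TEM, with Gzmk detected in 53.3% and Fasl in 40.8% of its cells. The authors' deposited table gives Nkg7 (1.03) and Ctsw (0.79) for CD8 TCM, Srgn for CD4 Th0, Th17 and Treg (0.38, 0.88 and 0.88) and Fasl for CD4 Th17 (0.26). Gzma, Gzmb and Gzmm are not among its rows. Before thinning they were found in 1.12%, 1.81% and 3.82% of CD8-gated cells, as means over libraries. Given the floor of 10%, nothing is read from their absence.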

How the data were processed

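Per the labels, T cells of the pancreas were sorted, frozen and later run as 1 set on the 10x Genomics 3′ chemistry. The deposited matrices hold unnormalised UMI counts per gene and barcode. The submitters' processing notes name Cell Ranger 6.1.2 and Seurat, whereas the file headers name Cell Ranger 6.0.0. No source used here gives a genome build or annotation. The authors' deposited marker table gives a log2 fold change, a p-value and the fraction of cluster cells with each gene, and its cells are not stated.

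Cells were kept with at least 500 genes and under 10% mitochondrial UMIs. The top-scoring 0.8% of barcodes per 1000 barcodes by Scrublet (scanpy 1.11.5) were removed as doublets. T cells had at least 2 UMIs over Cd3d, Cd3e, Cd3g, Trac, Trbc1 and Trbc2 and at most 1 over B cell and myeloid genes (among them Cd79a, Ms4a1, Lyz2, Csf1r and Fcer1g). B cells numbered 2 to 6 per library, under the 20 needed to serve as background, so CD4-gated cells with Ccr7 were used, a choice made after seeing the data. The pairs of 1 partner gene are not reported here. Members and lists were chosen with earlier results of these data known, and the named genes are the members, list genes past the threshold (up to 4 a list by lowest p) and the 3 genes most correlated with each member.

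UMIs were summed per library and gate and fitted with the quasi-likelihood test of edgeR 4.0.16 (R 4.3.3, TMM scaling, filterByExpr), with Benjamini-Hochberg adjustment over all genes tested and a threshold of 0.05. The gate comparison had library as a block, and the PPCA and day 4 contrasts came from a fit with day and treatment, which left 2 residual degrees of freedom. The day numbers paired the libraries: deviations of same-day vehicle and PPCA libraries correlated at 0.348, 0.542 and 0.515 in CD8-gated and 0.322, 0.337 and 0.497 in CD4-gated cells. Those of libraries of different days correlated at -0.474 to 0.109 in CD8-gated and -0.469 to 0.314 in CD4-gated cells. The 0.314, of vehicle on day 2 with PPCA on day 3, was close to the same-day values of those days. In CD4-gated cells days 2 and 3 were thus not set apart. DESeq2 1.42.0 and limma-voom (limma 3.58.1) were alternatives, and the method was tested on simulated data. Shares and pairs of genes used cells thinned to 2000 UMIs and exact two-sided sign-flip tests over libraries, and as background these measures were also taken for the genes found at least as widely as the least widely found member (9288 of 32285 in CD8-gated and 12096 in CD4-gated cells). CPM are UMIs per 1000000 of a sum, with exact 95% Poisson intervals.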

Additional observations from a re-analysis of the deposited data

How the results depend on the processing

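The 8 members higher in CD8-gated cells stayed at 8 under 9 settings of tool, scaling, filter, gate, thinning or cells left out, without each library in turn, without both day 4 libraries, and within the 4 libraries with Xist or the 4 with Y-linked transcripts. With no replicate block there were 7 (Fasl lost). Srgn turned to -0.0077 with gates of at least 2 UMIs, -0.0055 with no replicate block and -0.029 in the Y-linked libraries, and ran from -0.0096 to 0.069 when single libraries were left out. All genes called were 5363, against 2017 with no replicate block and 3562 after thinning. For PPCA in CD8-gated cells, 3 members were called with no low-count filter, 3 without day 4 and 3 with the sex of the library as a factor (0 to 3 over days left out). All genes called were 38 with DESeq2, 2 with limma-voom, 2 after thinning, 1 without the cells rich in Gzma, 142 with no low-count filter, 324 without day 4 and 282 with the sex factor. Over days left out Gzmb ran from -0.34 to 1.02, Gzmm from -0.78 to 0.35 (0.21 without day 3), Nkg7 from -0.11 to 0.17 and Srgn from -0.0035 to 0.17. In CD4-gated cells 0 members were called under every setting run, while all genes called were 35 with DESeq2, 133 with no low-count filter, 2 after thinning, 40 without day 4 and 111 with the sex factor. Gzma turned to 1.15 without the cells rich in Gzma, and over days left out Gzmk ran from -0.12 to 1.82, Nkg7 from -0.17 to 0.86 and Srgn from -0.12 to 0.21. No replicate block left 0 members called for PPCA in either gate and for the difference between gates.

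For the difference between gates, member calls were 4 with no low-count filter (72 genes called), 1 with gates of at least 2 UMIs (21), 1 with the sex factor (62) and 0 to 3 over days left out, and all genes called ran from 0 (no replicate block) to 76 (without day 2), with 1 by DESeq2. Over days left out Gzma ran from -0.14 to 2.73, Gzmb from -1.33 to 2.15, Gzmk from -1.41 to 0.77, Nkg7 from -0.94 to 0.27 and Srgn from -0.061 to 0.11. Srgn was at -0.024 without day 2 and -0.051 with no replicate block, and Fasl at -0.0069 after thinning. For day 4, member calls were 2 to 3 over days left out in CD4-gated cells, and reached 4 in CD8-gated and 5 in CD4-gated cells with no low-count filter and with the sex factor. All genes called on day 4 in CD8-gated cells were 966 and 649 without days 2 and 3 and 3546 with the sex factor, and in CD4-gated cells 639, 358 and 2772, and 2403 with no low-count filter. In CD8-gated cells Gzma ran from -1.32 to 1.92 (-0.59 without the cells rich in Gzma), Gzmb from -0.88 to 0.86 (0.28 after thinning), Gzmk from -0.51 to 1.18 and Ctsw from -0.50 to 0.11, and in CD4-gated cells Nkg7 from -0.13 to 0.53 and Ctsw from -0.50 to 0.034. With no replicate block the arms did not overlap for 1 of 18 shares (Gzmm in CD4-gated cells), against 4.13% and 5.6% of other genes in the 2 gates. Shares in CD8-gated cells ran, over days left out, from -0.0491 to 0.119 points for Gzma (-0.0365 without day 2, -0.00622 with gates of at least 2 UMIs), -1.66 to 0.374 for Gzmm and -1.87 to 0.0469 for Nkg7 (1.41 at 1000 UMIs). They turned without thinning for Prf1 (-0.954), Ctsw (-3.56) and Srgn (-3.83). Gzmm with Srgn turned to -0.33 at 1000 UMIs. Active against onset had 2 calls after thinning (Gzmk and Fasl in CD8-gated cells, where 1.94% of genes were called), and in CD4-gated cells Gzmb turned to -0.13 by the lineage gates alone. The cause of these moves was not tested. Leaving out the cells rich in Gzma or both day 4 libraries, and the split of libraries by Xist, were chosen after seeing the data. Depth limits the granzymes in CD4-gated cells, where Gzma had as few as 2 and Gzmb as few as 5 UMIs in a sum.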

Other observations

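T cells in neither gate (17531 cells, with no UMI of Cd4, Cd8a or Cd8b1) also held granule genes. Nkg7 was at 26.2 to 77.7 CPM there, highest in the day 4 PPCA library, and Gzmk at 1.08 to 13.6 CPM, again highest in that library. Gzma stood at 17.0 CPM in the active library, where 2 cells held 86 of the 90 UMIs and both also held Ncr1 and Klre1, genes of NK-type receptors. Over all 8 libraries 5 cells of this group held 20 or more Gzma UMIs, all 5 with Nkg7, Srgn and Ccl5.

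The number of granule genes found together also differed between gates. Among Gzma, Gzmb, Gzmk, Gzmm and Prf1, at least 2 were found in 1.25% to 6.43% of thinned CD8-gated cells and in at most 0.272% of CD4-gated cells. At least 1 of them was found in 13.1% to 30.6% and in 5.78% to 9.95%. No number expected from the single shares was set against these values. The ranges that follow are those of at least 2 genes. The lowest CD8 value was that of the day 3 PPCA library and the highest that of the day 2 PPCA library, and the highest CD4 value was that of the day 4 PPCA library.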
